A study of Rattus norvegicus with 8 samples.

Results

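The genes described here encode carbonyl reductases, single-electron reductases, an epoxide hydrolase and iron-handling proteins. They were chosen by symbol as a set on anthracycline reduction and iron handling. Whether the epoxide hydrolase acts on doxorubicin was not tested. Of 10 genes listed, 9 had a row under their symbol among the 24059 genes of the table, and all 9 were tested. No row was matched to Cbr1, which is not analysed here. The 9 genes were followed in germ cells sorted for GFP from testes of prepubertal rats.

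Doxorubicin-treated animals were 4 rats (numbers 2, 3, 6 and 8) dosed at 5 mg/kg on postnatal day 6, and controls were 4 vehicle rats (numbers 1, 4, 5 and 9), all sampled 24 h later. Every rat of both groups was a transgenic Sprague-Dawley animal carrying the GCS-EGFP reporter, and each library came from its own animal. PolyA-enriched RNA sequencing gave 41665785 to 58871101 estimated counts per library after doxorubicin and 41253848 to 57700969 in controls. Levels are given as CPM, counts scaled to the library total with TMM factors, which remove differences in library composition. CPM is not corrected for transcript length, so levels of different genes are not compared. The exceptions are summed levels of marker lists and the part of a gene in them, which depend on transcript length too. The labelled cell type was checked against 10 germ cell markers, whose summed level was 2368 to 2461 CPM after doxorubicin and 2319 to 2435 CPM in controls. The summed level of 8 Sertoli cell markers was 62.6 to 72.9 CPM after doxorubicin and 65.6 to 71.7 CPM in controls, and that of 6 Leydig cell markers was 4.38 to 9.71 CPM after doxorubicin and 5.88 to 8.32 CPM in controls. Macrophage markers summed to 18.7 to 20.7 CPM after doxorubicin and 17.4 to 24.5 CPM in controls, and endothelial markers to 11.4 to 14.1 CPM after doxorubicin and 11.1 to 13.4 CPM in controls. Peritubular markers summed to 13.9 to 26.6 CPM after doxorubicin and 12.5 to 17.3 CPM in controls, and erythroid markers to 9.51 to 15.2 CPM after doxorubicin and 7.58 to 9.63 CPM in controls. Among the peritubular markers, the means of Myh11 (8.75 CPM after doxorubicin, 5.09 CPM in controls) and Des were higher after doxorubicin. Those of Acta2, Cnn1 and Tagln were lower. Of the 6 tested erythroid markers, Slc4a1 (7.48 CPM after doxorubicin, 3.09 CPM in controls) and Epb42 had higher means after doxorubicin. The means of Hbb, Hba-a1, Alas2 and Ahsp were lower. The summed levels of each marker list overlapped between the groups. In bulk samples of this kind, fewer cells of a type and less RNA per cell cannot be told apart.

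Doxorubicin is a quinone with a ketone on its side chain. Carbonyl reductases and aldo-keto reductases reduce that ketone and give the alcohol doxorubicinol, a metabolite known for its part in cardiac toxicity. Flavoenzymes such as P450 reductase and xanthine oxidoreductase can instead pass a single electron to the quinone, and the semiquinone formed hands it on to oxygen as superoxide. The drug also chelates iron, and cells set their iron supply through transferrin receptor (uptake), ferritin (storage) and ferroportin (export), whose transcripts are bound by iron regulatory proteins.

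Of the 9 genes, Ephx1 had by far the widest difference between the groups, and the other 8 had overlapping values in doxorubicin and control rats. With edgeR's quasi-likelihood test and Benjamini-Hochberg adjustment over all 16976 genes tested, 0 of the 9 passed the threshold of 0.05, where 0.112% of all genes did (0.106% higher and 0.00589% lower after doxorubicin). At an unadjusted p below 0.05 the count was 1 of 9, against 6.76% of all genes (4.19% higher and 2.56% lower). DESeq2 called 1 of the 9, against 0.959% of all genes with an adjusted p (0.897% higher). The gene in both counts was Ephx1. The 9 log2 fold changes, doxorubicin over control, had 5 positive and 4 negative values and a median of 0.025, while 47.8% of all genes were positive and their median was -0.0047. As a look at the drug response, 4 p53 target genes were read. They were chosen with earlier results of these data known, so they are no independent test. All 4 had higher means after doxorubicin. Eda2r, a p53-induced receptor of the TNF receptor family, stood at 11.8 ± 3.0 CPM in doxorubicin rats and 1.83 ± 0.27 CPM in control rats (SD, n = 4 each). Its edgeR adjusted p was 9.63e-05, against 0.0411 for both Ccng1 and Aen and 0.107 for Cdkn1a.

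**Figure D1:**
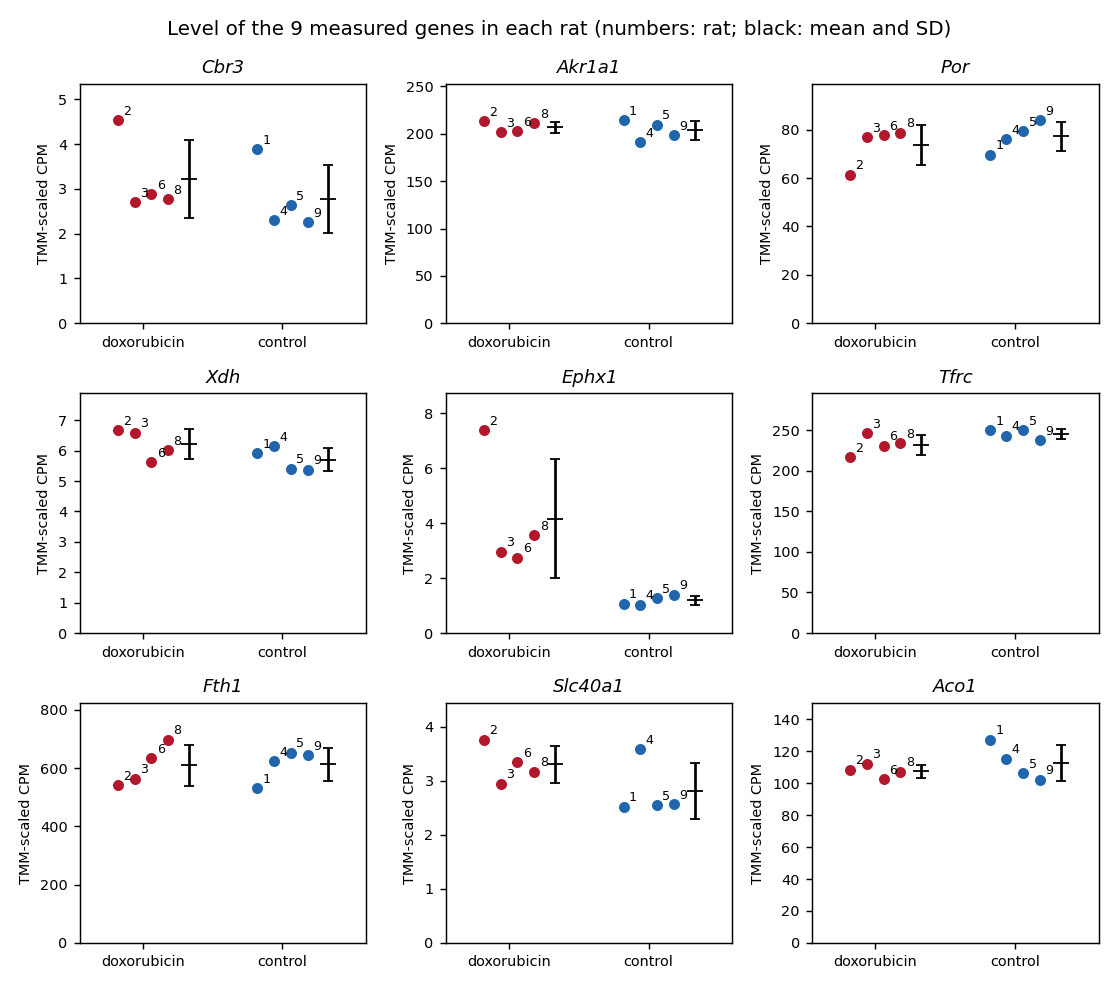
TMM-scaled CPM (vertical axis, from 0) of the 9 measured genes in each of the 8 rats, doxorubicin in red on the left and control in blue on the right, with the rat number beside each point and the group mean with SD in black. Ephx1 is the only one of the 9 whose groups do not overlap, with doxorubicin rats from 2.74 to 7.39 CPM and control rats from 1.03 to 1.39 CPM.

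Ephx1 (ENSRNOG00000003515.7) encodes microsomal epoxide hydrolase, which opens reactive epoxides to diols. Its level was 7.39, 2.96, 2.74 and 3.57 CPM in doxorubicin rats 2, 3, 6 and 8, and 1.07, 1.03, 1.27 and 1.39 CPM in control rats 1, 4, 5 and 9. Every doxorubicin rat lay above every control rat, and rat 2 lay above the other treated rats. Groups did not overlap for 4.72% of all genes tested, 2.77% with the doxorubicin rats higher and 1.95% with them lower. In whole counts Ephx1 had 427, 164, 115 and 197 in the doxorubicin libraries and 61, 58, 67 and 58 in the control libraries, so that counting error alone is 13.1% at the lowest.

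The means were 4.16 ± 2.18 CPM after doxorubicin and 1.19 ± 0.17 CPM in controls (SD, n = 4 each), a fold of 3.53 with a 95% interval from 2.14 to 5.82 and a log2 fold change of 1.82 ± 0.32 (SE). The edgeR quasi-likelihood p of 0.000235 became 0.0808 after adjustment over all genes, so Ephx1 did not pass, and it ranked 49 by p. Only 0.183% of tested genes had a larger log2 fold change in size. DESeq2 gave a log2 fold change of 1.82 with an adjusted p of 4.93e-07. Without robust fitting the edgeR adjusted p was 0.0329. Without doxorubicin rat 2 the log2 fold change was 1.39, or 2.61-fold, and the edgeR adjusted p was 0.000917.

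Among rats 1 to 4 alone, which hold 2 rats of each group, the Ephx1 log2 fold change was 2.30 (edgeR adjusted p = 0.906), and among rats 5 to 9 alone it was 1.26 (edgeR adjusted p = 0.0112). The labels do not say that these numbers mark a batch. Over 17 other settings the Ephx1 log2 fold change ran from 1.39 to 1.98 and the adjusted p from 4.93e-07 to 0.281, with 3 of the 17 past the threshold.

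**Figure D2:**
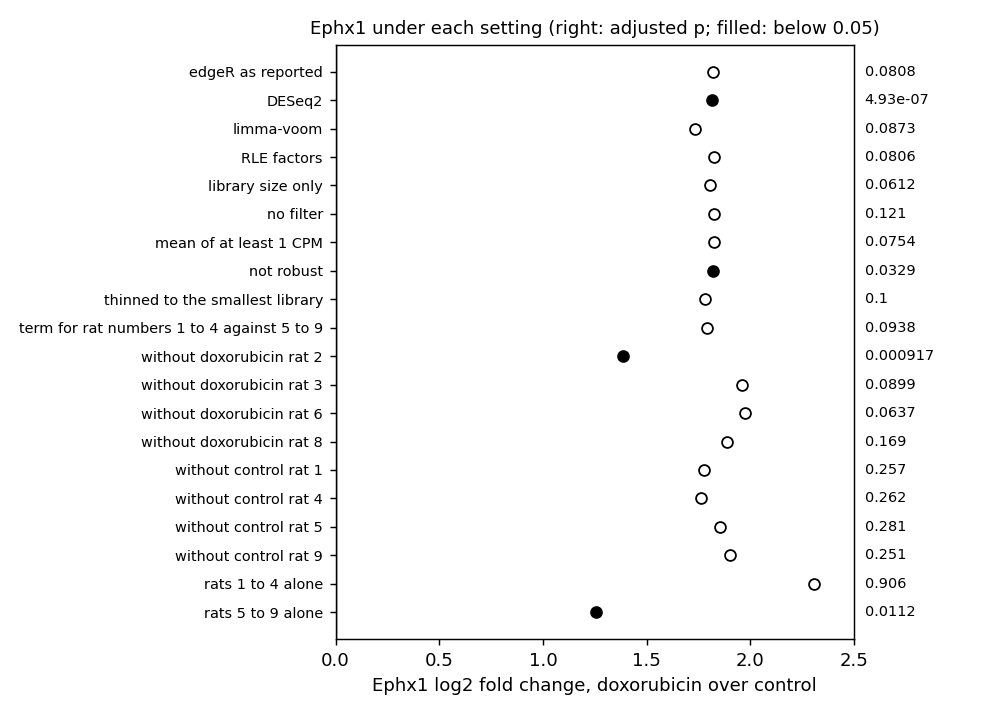
Log2 fold change of Ephx1, doxorubicin over control (horizontal axis), under the reported edgeR fit and each alternative setting (rows), with the adjusted p printed at the right and filled points where it is below 0.05. Every point lies above 1, and the filled ones are DESeq2, the fit that was not robust, the fit without doxorubicin rat 2, and rats 5 to 9 alone.

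RefSeq lists a pair of start sites for Ephx1, and the gene-level counts do not say which was used. The 250 bases before each start are shown because Ephx1 carries the widest difference here. Both are on the minus strand of the GRCr8 assembly and are written 5′ to 3′ along the transcribed direction, the upstream one at chr13:95275853-95276102 and the downstream one at chr13:95263118-95263367. Capitals mark matches, on either strand, to the p53 half-site, to the antioxidant response element core TGACNNNGC and to the AP-1 site TGANTCA.
Ephx1 upstream start: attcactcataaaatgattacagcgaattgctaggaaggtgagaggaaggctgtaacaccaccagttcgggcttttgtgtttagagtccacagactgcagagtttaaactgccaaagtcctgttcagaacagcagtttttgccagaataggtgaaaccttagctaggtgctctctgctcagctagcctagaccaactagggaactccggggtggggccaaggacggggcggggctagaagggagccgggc
Ephx1 downstream start: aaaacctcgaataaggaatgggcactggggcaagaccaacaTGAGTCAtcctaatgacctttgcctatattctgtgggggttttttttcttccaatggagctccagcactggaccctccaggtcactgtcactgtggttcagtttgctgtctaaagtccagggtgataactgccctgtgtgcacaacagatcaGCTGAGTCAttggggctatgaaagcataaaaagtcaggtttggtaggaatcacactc

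The upstream window held none of the 3 motifs. The downstream window held 2 AP-1 matches, whose first bases lie 209 and 55 bases before the start, and 1 antioxidant response element core in the reverse orientation, beginning 57 bases before the start and overlapping the nearer AP-1 match. Neither window matched the p53 half-site. Among 33469 RefSeq promoter windows of the same 250 bases, 10.1% held the antioxidant core, 6.34% an AP-1 match and 6.64% a p53 half-site. Of the 10 listed genes 9 had a promoter entry, and of their windows only that of the downstream Ephx1 start held any of these 3 motifs. Another motif, the hypoxia response element core ACGTG, was found only in the window of Tfrc, 31 bases before its start, and in 16.6% of all windows. These matches are descriptions of sequence and show no binding.

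Across the 8 libraries, the pattern of Ephx1 was most like that of Cdkn1a. Likeness was measured as the root mean square difference of the log2 CPM, each centred on its own mean, over 13921 other genes of at least 1 CPM. This difference was 0.18 for Cdkn1a, which encodes the cell cycle inhibitor p21, 0.21 for Ropn1, a sperm flagellum protein, and 0.23 for Plk2, a polo-like kinase. In Cdkn1a too, doxorubicin rat 2 was highest at 36.0 CPM, with 15.0, 15.1 and 16.9 CPM in doxorubicin rats 3, 6 and 8, and control rats lay from 5.37 to 6.14 CPM. Plk2 had 57.0 CPM in doxorubicin rat 2, 27.7 to 32.8 CPM in the other treated rats and 12.8 to 13.9 CPM in controls. None of these 3 passed edgeR over all genes, with adjusted p of 0.107 for Cdkn1a, 0.179 for Ropn1 and 0.0808 for Plk2. DESeq2 called all 3, with adjusted p of 6.44e-06 for Cdkn1a, 0.00227 for Ropn1 and 4.41e-07 for Plk2. Likeness was taken over both groups, so a group difference and a high rat 2 like those of Ephx1 follow from the choice. They are no separate result.

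**Figure D3:**
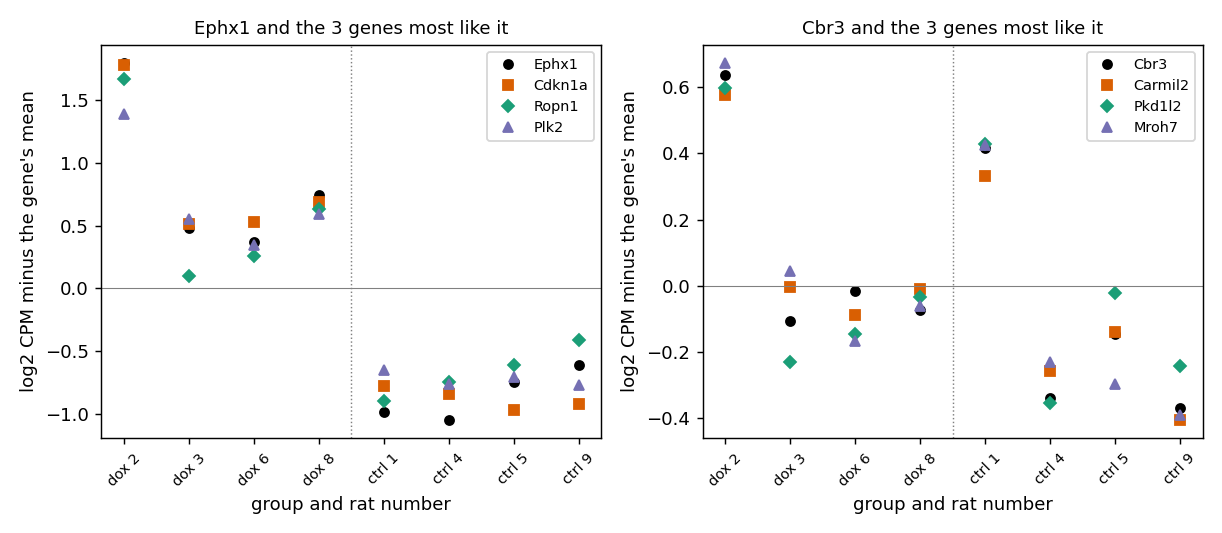
Log2 CPM of each gene minus its own mean over the 8 libraries (vertical axis) by group and rat number (horizontal axis, doxorubicin rats left of the dotted line), for Ephx1 and the 3 genes most like it and for Cbr3 and the 3 most like it. In the left panel doxorubicin rat 2 is highest and all treated rats lie above all controls, and in the right panel doxorubicin rat 2 and control rat 1 lie above the other 6 rats. The 3 genes beside each member were chosen for likeness over all 8 libraries, so they share its pattern by selection.

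Other epoxide hydrolases were looked up from a list of 3, of which 2 were abundant enough to test and 0 passed. Ephx2, the soluble epoxide hydrolase that acts on fatty acid epoxides, stood at 2.70, 1.79, 1.76 and 2.37 CPM in doxorubicin rats 2, 3, 6 and 8, and at 1.51, 1.49, 1.38 and 1.01 CPM in control rats 1, 4, 5 and 9. Its groups did not overlap either, and rat 2 was again the highest treated rat. The log2 fold change was 0.67 ± 0.19 (SE), with an unadjusted edgeR p of 0.00336 and an adjusted p of 0.292 (DESeq2 adjusted p = 0.112). Ephx4 had a log2 fold change of 0.39 ± 0.32 at 0.346 CPM after doxorubicin and 0.269 CPM in controls.

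Neither measured carbonyl reductase of the set, Cbr3 or Akr1a1, passed the test, and Cbr1 had no matched row and was not tested. Cbr3 (ENSRNOG00000001701.7), a short-chain carbonyl reductase, was measured at 4.53, 2.71, 2.88 and 2.77 CPM in doxorubicin rats 2, 3, 6 and 8, and at 3.89, 2.30, 2.64 and 2.25 CPM in control rats 1, 4, 5 and 9. In each group 1 rat stood above the rest, doxorubicin rat 2 and control rat 1, and the other 6 rats lay together from 2.25 to 2.88 CPM. The log2 fold change was 0.22 ± 0.21 (SE; edgeR adjusted p = 0.942), with a 95% interval for the fold from 0.84 to 1.61. Without doxorubicin rat 2 it was 0.0016, and without control rat 1 it was 0.43. The genes most like Cbr3 over the 8 libraries were Carmil2, a regulator of actin capping, Pkd1l2 and Mroh7, with differences of 0.07, 0.092 and 0.10 on the log2 scale.

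Akr1a1 (ENSRNOG00000016727.6), an aldehyde reductase of the aldo-keto reductase family, was among the steadiest of the 9 genes. It had 213.3, 201.6, 202.7 and 210.9 CPM in doxorubicin rats 2, 3, 6 and 8, and 214.4, 191.4, 209.7 and 198.8 CPM in control rats 1, 4, 5 and 9. The groups covered nearly the same range. Its log2 fold change was 0.025 ± 0.041 (SE; edgeR adjusted p = 0.967), and the 95% interval for the fold ran from 0.957 to 1.08.

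Rows named as Cbr1-like were looked at beside these genes, and how reads are divided among such near-identical copies is uncertain. The row named Cbr1l2 (ENSRNOG00000049911.4) carried the Entrez identifier that RefSeq now gives to a gene called Cbr1l1, and which copy its reads came from was not resolved. It had 70.7, 73.3, 81.8 and 80.8 CPM in doxorubicin rats 2, 3, 6 and 8, and 67.7, 75.8, 85.2 and 84.6 CPM in control rats 1, 4, 5 and 9. The groups overlapped, with a log2 fold change of -0.031 ± 0.076 (SE; edgeR adjusted p = 0.98). A separate row named Cbr1l1, annotated as a pseudogene, had 0.182 CPM after doxorubicin and 0.0265 CPM in controls. It was too low for the edgeR test, its groups overlapped, and DESeq2 did not call it (adjusted p = 0.603). Among 14 further carbonyl-reducing enzymes on a list, 11 were tested, with 5 positive and 6 negative log2 fold changes, and 0 passed edgeR or DESeq2 or had an unadjusted p below 0.05. Akr1b1, aldose reductase, stood at 204.2 CPM after doxorubicin and 196.9 CPM in controls. Akr7a2, an aflatoxin aldehyde reductase, stood at 76.2 CPM after doxorubicin and 74.1 CPM in controls, and the mitochondrial carbonyl reductase Cbr4 at 7.10 CPM after doxorubicin and 7.11 CPM in controls.

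The reductases that can pass a single electron to the drug gave no call either. Por (ENSRNOG00000001442.4), which encodes the P450 reductase that feeds electrons to microsomal cytochromes, had 61.3, 76.9, 77.6 and 78.7 CPM in doxorubicin rats 2, 3, 6 and 8, and 69.6, 76.1, 79.5 and 84.0 CPM in control rats 1, 4, 5 and 9. Doxorubicin rat 2 was the lowest of all 8 rats and control rat 1 the next lowest. The log2 fold change was -0.069 ± 0.083 (SE; edgeR adjusted p = 0.952), and without doxorubicin rat 2 it was 0.0095.

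Xdh (ENSRNOG00000007081.7), xanthine oxidoreductase of purine breakdown, had 6.68, 6.59, 5.63 and 6.01 CPM in doxorubicin rats 2, 3, 6 and 8, and 5.91, 6.15, 5.40 and 5.37 CPM in control rats 1, 4, 5 and 9. The groups overlapped, and within each group the rats numbered 1 to 4 lay above those numbered 5 to 9. Its log2 fold change was 0.13 ± 0.10 (SE; edgeR adjusted p = 0.906), with a 95% interval for the fold from 0.942 to 1.26. Of 14 further quinone and single-electron reductases and their partners, 13 were tested, 6 positive and 7 negative, and 0 passed edgeR or DESeq2 or had an unadjusted p below 0.05. Nqo1, which reduces quinones by an electron pair and so avoids the semiquinone, stood at 2.44 CPM after doxorubicin and 1.99 CPM in controls, a log2 fold change of 0.30 ± 0.17 (SE; edgeR adjusted p = 0.815). Its relative Nqo2 had 12.9 CPM after doxorubicin and 12.7 CPM in controls, and the cytochrome b5 reductase Cyb5r3 had 13.8 CPM after doxorubicin and 16.0 CPM in controls.

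Of the 4 iron genes, Tfrc, Fth1, Slc40a1 and Aco1, 0 passed edgeR or DESeq2. Tfrc (ENSRNOG00000001766.8), the transferrin receptor through which dividing cells take up iron, had 216.9, 246.7, 230.8 and 233.8 CPM in doxorubicin rats 2, 3, 6 and 8, and 250.4, 243.2, 249.8 and 237.5 CPM in control rats 1, 4, 5 and 9. Doxorubicin rats 2, 6 and 8 lay below every control, and doxorubicin rat 3 lay among the controls. The log2 fold change was -0.08 ± 0.04 (SE), the unadjusted edgeR p was 0.07 and the adjusted p 0.787, and the 95% interval for the fold ran from 0.891 to 1.01. Erythroid cells also express Tfrc, and of 9 erythroid markers 8 had a row and 6 were tested, of which edgeR called 1. That was Slc4a1, the band 3 anion exchanger, which stood at 7.48 ± 2.21 CPM after doxorubicin and 3.09 ± 0.35 CPM in controls (SD, n = 4 each; log2 fold change 1.28 ± 0.18 SE, edgeR adjusted p = 0.0339) and which makes up most of the summed erythroid level after doxorubicin. The globins lay the other way, Hbb at 0.688 CPM after doxorubicin and 1.55 CPM in controls (edgeR adjusted p = 0.192, DESeq2 0.0242) and Hba-a1 at 1.121 CPM after doxorubicin and 2.061 CPM in controls (edgeR adjusted p = 0.206, DESeq2 0.0382). Globin counts were low, for Hbb 22 to 67 after doxorubicin and 49 to 98 in controls. For Hba-a1 they were 38 to 82 after doxorubicin and 69 to 150 in controls. The part of erythroid RNA in the level of Tfrc was not tested.

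Fth1 (ENSRNOG00000022619.7), the ferritin heavy chain that oxidises and stores iron, had 541.1, 564.3, 635.2 and 697.3 CPM in doxorubicin rats 2, 3, 6 and 8, and 530.8, 624.9, 652.8 and 645.1 CPM in control rats 1, 4, 5 and 9. The groups overlapped, with control rat 1 the lowest and doxorubicin rat 8 the highest of the 8 rats. Its log2 fold change was -0.0093 ± 0.092 (SE; edgeR adjusted p = 0.996). Ferritin genes have many processed copies, and a copy named Fth1-ps5 had 0.486 CPM after doxorubicin and 0.512 CPM in controls. The 95% interval for the fold of Fth1 ran from 0.86 to 1.15.

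Slc40a1 (ENSRNOG00000003872.4) encodes ferroportin, the iron exporter, and is abundant in macrophages. It had 3.75, 2.94, 3.34 and 3.17 CPM in doxorubicin rats 2, 3, 6 and 8, and 2.52, 3.58, 2.54 and 2.57 CPM in control rats 1, 4, 5 and 9. The treated rats lay above 3 of the 4 controls, and control rat 4 lay among them. The log2 fold change was 0.23 ± 0.15 (SE; edgeR adjusted p = 0.843), and without control rat 4 it was 0.38. Of 6 macrophage markers 5 were tested and 0 passed edgeR or DESeq2, with summed levels of 18.7 to 20.7 CPM after doxorubicin and 17.4 to 24.5 CPM in controls, most of it Mrc1 (17.5 CPM after doxorubicin and 17.9 CPM in controls). Of the 5 tested, 3 had positive log2 fold changes, Csf1r (0.33), Cd68 (0.23) and Ptprc (0.081), and 2 had negative ones, Mrc1 (-0.03) and Cd163 (-0.24). Adgre1, too low to test, was at 0.009 CPM after doxorubicin and 0.0151 CPM in controls. The part of macrophage RNA in the level of Slc40a1 was not tested.

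Aco1 (ENSRNOG00000005849.8) encodes cytosolic aconitase, which without its iron-sulfur cluster becomes iron regulatory protein 1 and binds the transcripts of Tfrc, Fth1 and Slc40a1. It had 108.6, 112.2, 102.4 and 107.2 CPM in doxorubicin rats 2, 3, 6 and 8, and 127.2, 115.4, 106.2 and 102.3 CPM in control rats 1, 4, 5 and 9. All 4 treated rats lay within the range of the controls. The log2 fold change was -0.068 ± 0.061 (SE; edgeR adjusted p = 0.932), with a 95% interval for the fold from 0.869 to 1.05.

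**Figure D4:**
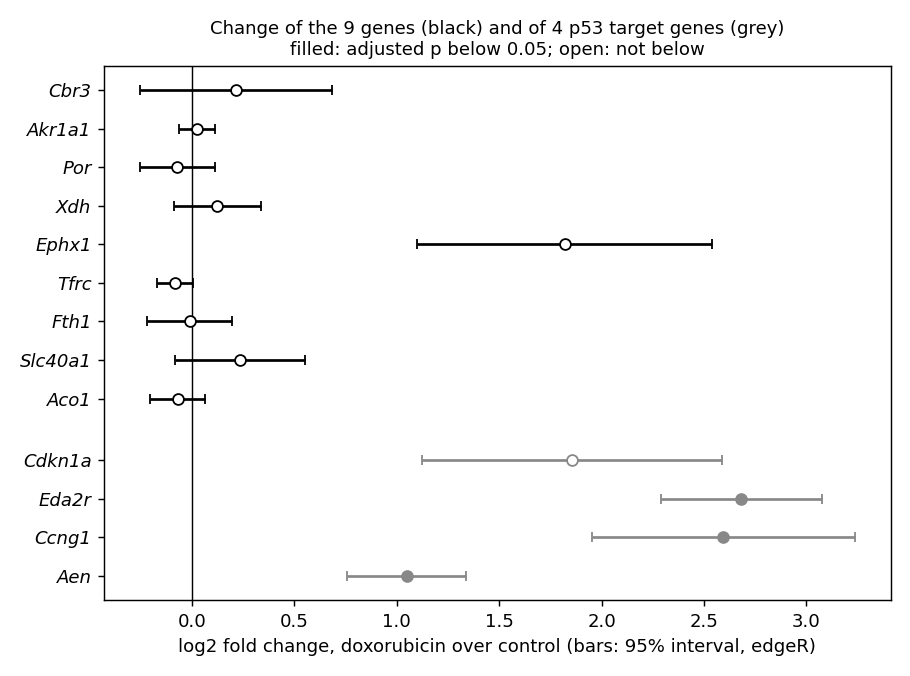
Log2 fold change, doxorubicin over control, with 95% intervals from edgeR (horizontal axis) for the 9 measured genes in black and for 4 p53 target genes in grey, filled where the adjusted p is below 0.05. The interval of Ephx1 lies wholly above 0 and that of each of the other 8 genes includes 0, while Eda2r, Ccng1 and Aen are filled.

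The rest of the iron pathway was read from 5 lists. Of the 11 tested iron uptake genes 5 were positive and 6 negative, with 0 past edgeR or DESeq2 and 0 at an unadjusted p below 0.05. Transferrin itself, Tf, stood at 83.6 CPM after doxorubicin and 86.4 CPM in controls, the divalent metal transporter Slc11a2 at 56.4 CPM after doxorubicin and 57.1 CPM in controls, and the ferrireductase Steap3 at 1.94 CPM after doxorubicin and 1.69 CPM in controls. Among 5 tested storage and chaperone genes, 0 passed edgeR or DESeq2 and 0 had an unadjusted p below 0.05, and log2 fold changes ran from -0.02 to 0.053. The ferritin light chain Ftl1 had 327.5 CPM after doxorubicin and 324.3 CPM in controls, the ferritin-degradation receptor Ncoa4 had 105.0 CPM after doxorubicin and 102.3 CPM in controls, and the iron chaperone Pcbp1 had 218.4 CPM after doxorubicin and 221.4 CPM in controls.

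Of 5 tested export genes 1 was positive and 4 negative, with 0 past edgeR or DESeq2 and 0 at an unadjusted p below 0.05. They include the ferroxidase Heph, at 3.04 CPM after doxorubicin and 2.62 CPM in controls, its plasma relative Cp, at 0.815 CPM after doxorubicin and 0.965 CPM in controls, and Flvcr1, known as a heme exporter, at 3.16 CPM after doxorubicin and 3.46 CPM in controls. Of 8 iron-sensing genes 5 were positive and 3 negative, with 0 past edgeR or DESeq2 and 0 at an unadjusted p below 0.05. Ireb2, iron regulatory protein 2, had 110.4 CPM after doxorubicin and 110.0 CPM in controls, and Fbxl5, the ubiquitin ligase subunit that removes it, had 243.9 CPM after doxorubicin and 239.5 CPM in controls.

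In the list of 16 heme and iron-sulfur genes 6 were positive and 10 negative, and 0 passed edgeR or DESeq2. The 1 gene with an unadjusted p below 0.05 was Hmox1, heme oxygenase 1, which frees iron from heme under oxidative stress. It had 43.3, 42.3, 39.1 and 45.1 CPM in doxorubicin rats 2, 3, 6 and 8, and 38.3, 36.7, 39.8 and 39.3 CPM in control rats 1, 4, 5 and 9. Treated rats 2, 3 and 8 lay above all controls and rat 6 lay among them, with a log2 fold change of 0.14 ± 0.05 (SE; edgeR adjusted p = 0.588). Its constitutive relative Hmox2 had 102.1 CPM after doxorubicin and 107.2 CPM in controls, and its groups did not overlap (edgeR adjusted p = 0.765). The mitochondrial iron importer Slc25a37 stood at 5.18 CPM after doxorubicin and 5.58 CPM in controls.

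**Figure D5:**
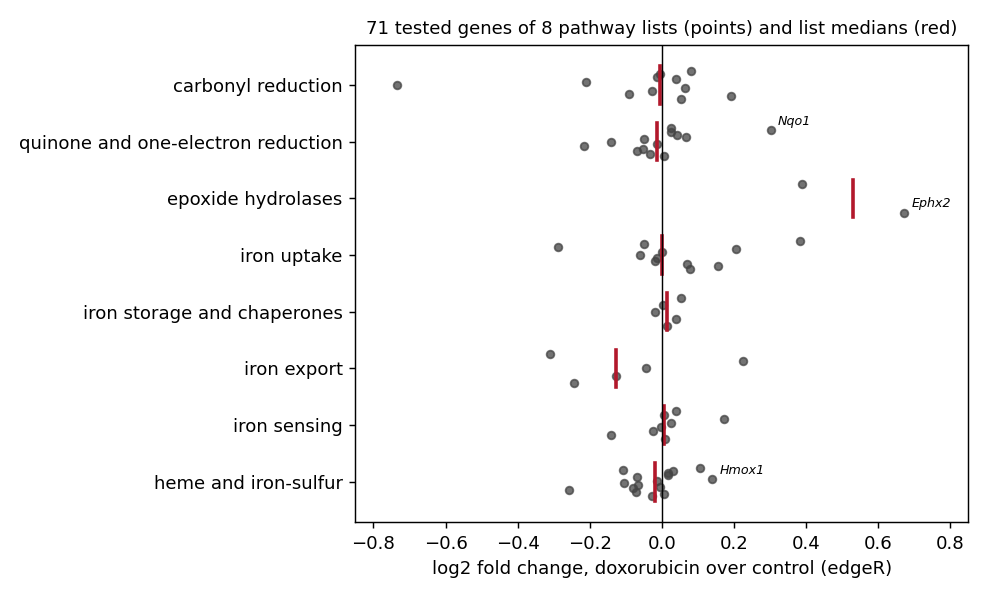
Log2 fold change, doxorubicin over control (horizontal axis), of the 71 tested genes in 8 pathway lists (points, 1 row per list), with the median of each list in red. The medians of 7 lists lie between -0.13 and 0.014, and that of the epoxide hydrolases, over 2 genes, is at 0.53.

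Over the 8 lists together, 34 of 71 tested genes were positive and 37 negative, with a median log2 fold change of -0.0029. Of these genes 0 passed edgeR or DESeq2 over all genes, and 2 had an unadjusted p below 0.05, Ephx2 and Hmox1, with higher means after doxorubicin, against 6.76% of all genes (4.19% higher). Groups did not overlap for 2 of the 71, against 4.72% of all genes.

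How the 9 genes varied among rats differed by gene. The biological coefficient of variation, edgeR's estimate of the spread between rats of a group, had a median of 9.25% over the 9 genes and 9.24% over all genes tested. It was lowest for Tfrc and Akr1a1, 4.75% and 4.80%, and highest for Ephx1 and Cbr3, 29.3% and 20.7%. Doxorubicin rat 2 and control rat 1 had the 2 highest levels of Cbr3 and the 2 lowest levels of Por, Fth1 and Cbr1l2 among the 8 rats, a pattern noticed after the values were seen. For Ephx1 control rat 1 was not apart from the other controls.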

How the data were processed

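Per the labels' protocols, PicoPure-extracted RNA of RIN above 8 went into polyA-enriched libraries. Per the submitters' processing notes, which give no roles, the build was rn6 and the tools were kallisto 0.48.0, featureCounts, Trimmomatic, fastp 0.23.2, DESeq2 1.40.2, MultiQC 1.12 and FastQC 0.11.9. The authors deposited estimated counts per gene and rat, not normalized; 32.5% to 33.6% of the values per library were not whole, and all were rounded. The sources used here do not give the strand setting or how reads with several matches were counted.

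Tests ran in R 4.3.3 with edgeR 4.0.16 (filterByExpr, TMM, robust quasi-likelihood F test, no covariate), with DESeq2 1.42.0 and limma 3.58.1 as alternatives, and Benjamini-Hochberg adjustment ran over all 16976 genes kept. Each SE was derived from a gene's log2 fold change and F statistic. The procedure was checked on simulated data. Members and lists were chosen with earlier results of these data known. Named were the 9 measured genes, 21 list genes chosen by name (others so chosen are not reported here), any list gene past the threshold, 4 p53 targets and the 3 genes most alike to the 2 members of widest range. Ephx4, Hbb, Hba-a1, Alas2, Ahsp, Epb42, the macrophage markers and the copies of Cbr1 and Fth1 were named after their values were seen. A symbol with several rows took the row of highest mean count. All 28 library pairs differed beyond sampling noise (smallest chi-square over its degrees of freedom, 6.22). Intervals cover the spread between rats, and counting errors cover counting only. Alternatives were other tools, scalings and filters, thinning, a term for the set of rat numbers, and leaving out each rat. Promoter windows are from RefSeq, GRCr8.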

Additional observations from a re-analysis of the deposited data

Results flagged for a closer look

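In groups of 4 rats, the gap between the farthest rat and its nearest neighbour was set against the range of the group, over 76 groups (both groups for the 9 measured genes and every tested list gene or p53 target chosen for naming). Were the groups independent, chance would give about 1 in 20, or 3.8. They are genes read in the same rats, so this number is only a rough guide. In all, 6 were found, of which 5 were doxorubicin rat 2. Cbr3 in that rat had 4.53 CPM, while doxorubicin rats 3, 6 and 8 had 2.71 to 2.88 CPM. The same rat had 61.3 CPM of Por (76.9 to 78.7 in doxorubicin rats 3, 6 and 8), 36.0 CPM of Cdkn1a (15.0 to 16.9), 10.8 CPM of Slc4a1 (6.08 to 6.75) and 125 CPM of Aen, a p53-induced nuclease (83.3 to 88.6). Slc40a1 stood at 3.58 CPM in control rat 4, against 2.52 to 2.57 CPM in the other controls. Ephx1 in doxorubicin rat 2, at 7.39 CPM, was highest in its group but did not pass this measure.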

How the results depend on the processing

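No paired analysis was run. The groups share no rat number, and litter was not taken into account. Of the 9 measured genes edgeR called 0, while DESeq2, edgeR without robust fitting, edgeR without doxorubicin rat 2 and rats 5 to 9 alone each called 1, which was Ephx1, and leaving out single rats gave 0 to 1. Its log2 fold change there was 1.82 both with DESeq2 and without robust fitting, and 1.26 in rats 5 to 9 alone, and leaving out single rats gave 1.39 to 1.98. Over all genes edgeR called 19 (DESeq2 170, without robust fitting 53, with a term for the set of rat numbers 61, rats 1 to 4 alone 0, rats 5 to 9 alone 92), and 1 to 62 when single rats were left out. The comparisons within each set of rats were added after seeing the data.

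Genes near 0 changed sign, and the cause was not tested. Leaving out single rats gave log2 fold changes of -0.12 to 0.0095 for Por, -0.0805 to 0.0438 for Fth1, -0.047 to 0.055 for Cbr4, -0.0433 to 0.0165 for Slc11a2, -0.012 to 0.056 for Ftl1 and -0.025 to 0.029 for Ireb2. In rats 5 to 9 alone Fth1 had 0.0397 and Aco1 0.0094. Ireb2 had -0.0033 by library size only and -0.0046 after thinning. Cbr3, Xdh, Tfrc, Slc40a1 and Aco1 kept their direction in all 17 other settings of the full comparison and passed in none. Of these, Cbr3 came to 0.0016 without doxorubicin rat 2 and Aco1 to -0.0052 without control rat 1. Akr1a1, which also passed in none, was at 0 without control rat 4. Ccng1 and Aen lost their calls without a filter and without several single rats, with adjusted p up to 0.213. Slc4a1 passed in 12 of 17 settings and not without doxorubicin rat 8 or any single control (adjusted p from 0.0757 to 0.213). Of the 9 measured genes, depth limits Ephx1, Cbr3, Slc40a1 and Xdh most, whose lowest counts were 58, 94, 107 and 224.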
